A study of Homo sapiens with 9 samples.

Results

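The 40 genes described here encode the machinery of mitosis and of entry into it, taken by gene symbol from the 58735 genes that both deposited tables list. Each symbol stood on 1 row. PaTu 8988t, a human pancreatic adenocarcinoma line of metastatic origin, gave the 9 RNA sequencing libraries in which they were read. The study exposed these cells to extracellular matrix of 3 kinds, with 3 libraries each: a matrix with wild-type CPXM2, a matrix with the CPXM2 mutant R213A and a control matrix. CPXM2 is a secreted protein of the carboxypeptidase family with a discoidin domain, and the study asked what collagen aligned by it does to gene expression. All groups grew in DMEM with serum and antibiotics and are called wild type, R213A and control here. The labels do not say which cells made the matrix, how long the exposure lasted or whether the libraries of a group came from separate cultures.

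Libraries were deposited in 2 tables of FPKM (fragments scaled by gene length and library depth): a 4-library table with wild type 1, R213A 1 and 3 and control 1, and a 5-library table with wild type 2 and 3, R213A 2 and control 2 and 3. What the tables stand for is not given in the sources used here. Every group difference was therefore formed within a table, and wild type 1 is given apart. Of the 40 genes, 39 had a mean of at least 1 FPKM and entered the tests with 11193 genes in all.

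As background, cells that pass from S phase into mitosis switch on these genes together. Their promoters often carry a cell cycle homology region, a short element read by the MuvB complex with its partners B-MYB and FOXM1, and one or more CCAAT boxes bound by the factor NF-Y. CDK1 with cyclin B then starts mitosis, the spindle checkpoint holds anaphase back until the chromosomes are attached, and the anaphase-promoting complex ends mitosis by marking securin and cyclin B for destruction. In a culture, the summed level of such transcripts rises and falls with the share of dividing cells. In these bulk libraries fewer dividing cells and less mitotic RNA per cell cannot be told apart.

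The promoter letters were read from RefSeq windows of build GRCh38.p14, which run over 250 bases before and 50 bases after a gene's start and were given for 34 of the 40 genes. Windows of 5 of them follow, because they show an element close to the start that many of these genes carry: CCNB1 (chr5:69166900-69167199, cyclin B1), CCNB2 (chr15:59104896-59105195, cyclin B2), CKS2 (chr9:89310945-89311244, the gene of highest level), PLK1 (chr16:23678639-23678938, an entry kinase) and KIF20A (chr5:138178862-138179161, the gene that stood lowest in wild type 1 relative to control 1). All 5 lie on the plus strand and run 5′ to 3′, and capitals mark the 3 motifs searched on both strands. The first is TTTGAA, which reads as TTCAAA on the other strand. A variant of it is TTTAAA, its own reverse complement. The CCAAT box reads as ATTGG on the other strand.
CCNB1: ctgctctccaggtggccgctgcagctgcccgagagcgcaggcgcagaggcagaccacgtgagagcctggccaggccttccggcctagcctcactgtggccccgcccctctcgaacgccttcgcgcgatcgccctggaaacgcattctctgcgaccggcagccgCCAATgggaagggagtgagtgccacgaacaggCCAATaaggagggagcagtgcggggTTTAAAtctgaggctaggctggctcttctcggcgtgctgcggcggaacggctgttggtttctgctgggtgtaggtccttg
CCNB2: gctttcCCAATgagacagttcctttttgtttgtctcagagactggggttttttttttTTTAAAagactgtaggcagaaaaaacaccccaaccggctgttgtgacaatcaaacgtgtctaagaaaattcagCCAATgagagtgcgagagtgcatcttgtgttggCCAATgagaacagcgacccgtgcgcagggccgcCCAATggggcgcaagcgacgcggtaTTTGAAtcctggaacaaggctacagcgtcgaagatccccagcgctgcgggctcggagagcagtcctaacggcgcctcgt
CKS2: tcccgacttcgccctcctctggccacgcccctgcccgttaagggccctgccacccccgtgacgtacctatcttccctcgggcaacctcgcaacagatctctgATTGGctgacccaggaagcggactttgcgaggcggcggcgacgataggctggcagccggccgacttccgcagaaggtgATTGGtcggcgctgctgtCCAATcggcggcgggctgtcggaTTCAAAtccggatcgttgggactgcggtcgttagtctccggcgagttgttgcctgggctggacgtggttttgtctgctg
PLK1: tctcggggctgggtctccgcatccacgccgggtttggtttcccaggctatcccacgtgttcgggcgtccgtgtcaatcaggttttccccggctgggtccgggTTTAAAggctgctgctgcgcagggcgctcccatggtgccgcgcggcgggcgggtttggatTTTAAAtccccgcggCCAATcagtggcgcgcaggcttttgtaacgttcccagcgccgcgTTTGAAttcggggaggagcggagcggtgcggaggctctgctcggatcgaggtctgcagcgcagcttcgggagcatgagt
KIF20A: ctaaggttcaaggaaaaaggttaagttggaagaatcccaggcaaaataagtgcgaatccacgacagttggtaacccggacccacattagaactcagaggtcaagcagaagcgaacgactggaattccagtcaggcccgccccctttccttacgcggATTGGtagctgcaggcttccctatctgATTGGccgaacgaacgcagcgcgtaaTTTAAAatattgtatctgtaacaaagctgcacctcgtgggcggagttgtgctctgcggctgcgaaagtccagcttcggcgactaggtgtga
The element began 29 bases before the start in CCNB2, CKS2 and PLK1, 30 bases in CCNB1 and 41 bases in KIF20A, with the nearest CCAAT box 52 to 73 bases before the start.

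Over the 34 genes with a window, TTTGAA stood in 25 (73.5%) and in 18.2% of the 27305 genes of the whole table. TTTAAA stood in 12 (35.3%) and in 14.5% of all genes, and CCAAT in 28 (82.4%) and in 39.7% of all genes. Either form of the first element stood together with CCAAT in 24 (70.6%) and in 11.2% of all genes, and in 22 (64.7%) and 9.29% when the search was kept to the 250 bases before the start. In the windows of these genes 2 pairs of matches of different motifs shared a base. A match is a description of letters, and whether a factor binds there was not measured.

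Depth did not set the libraries apart: recovered totals ran between 15951927 and 18312806 reads, with 20059 to 21401 genes at 1 read or more. The 40 genes drew 30720 to 121868 reads per library. Markers of 4 other cell kinds were low, with 0 of 10 fibroblast, 0 of 7 immune, 0 of 5 endothelial and 0 of 4 fat cell genes at a mean of 1 FPKM. Summed levels of the fibroblast genes were at most 0.872, 0.837 and 0.925 FPKM in the wild type, R213A and control libraries. The labels do not name the cells that made the matrix, so RNA carried over from a producer of another kind was not tested. Of 4 genes fixed as marks of the line, 3 passed the filter (KRT8, KRT18 and VIM), with KRT18 at a mean of 347.6 FPKM. The keratin gene KRT19 failed it, at a mean of 0.0217 FPKM. Wild type 2, wild type 3, R213A 2 and control 3 stood close to each other in the mitotic genes, although they belong to 3 groups. Control 2 stood farther from them, in these genes as in genes at large.

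The summed weight of the mitotic genes differed most in the 4-library table. They took 0.169% of the reads in wild type 1, 0.497% and 0.496% in R213A 1 and 3 and 0.710% in control 1. In the 5-library table they took 0.363% and 0.348% in wild type 2 and 3, 0.359% in R213A 2 and 0.337% and 0.363% in control 2 and 3. Wild type 1 was thus below every other library and control 1 above every other, while the 5 libraries of the second table lay within a narrow band. The median level over the 39 genes was 6.47 FPKM in wild type 1, 21.1 and 21.6 FPKM in R213A 1 and 3 and 34.5 FPKM in control 1. The 5-library medians were 17.7 and 16.4 FPKM in wild type 2 and 3, 17.7 FPKM in R213A 2 and 17.4 and 17.6 FPKM in control 2 and 3.

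**Figure D1:**
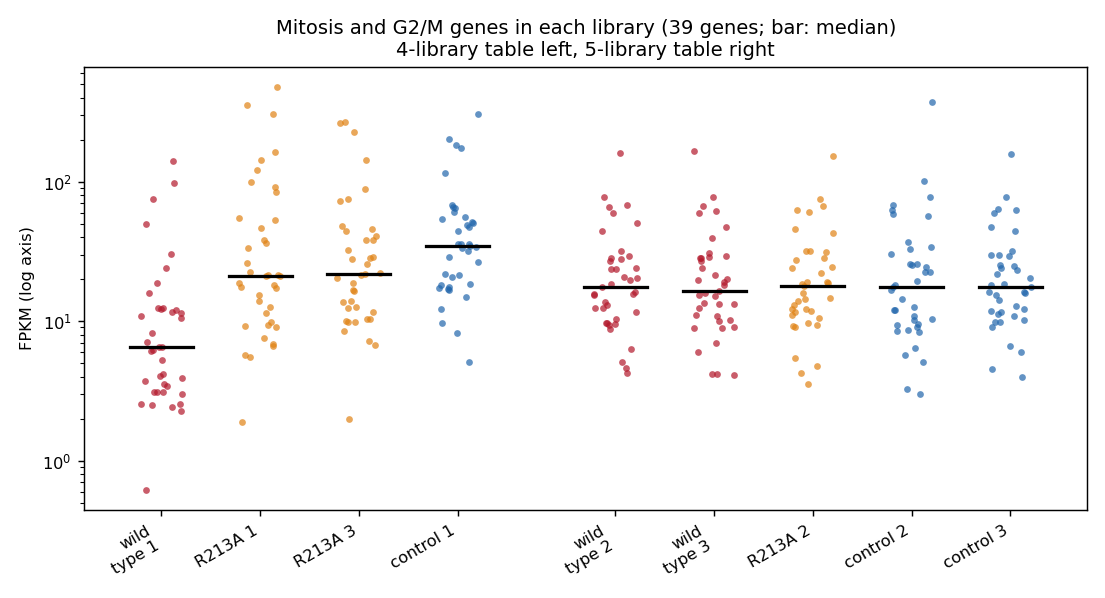
Level of each of the 39 mitosis and G2/M genes in each library, as FPKM on a log axis, with the 4-library table on the left and the 5-library table on the right and a bar at the median. The median is 6.47 FPKM in wild type 1 and 34.5 FPKM in control 1, and between 16.4 and 17.7 FPKM in the 5 libraries of the other table.

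Among the entry kinases and cyclins, all 8 genes were lower in wild type 1 than in control 1, and wild type 2 and 3 lay near control 2 and 3. CKS2, a small subunit of cyclin-dependent kinases (ENSG00000123975, hg38 chromosome 9, 89311198 to 89316703, plus strand), had 140 FPKM in wild type 1, 479 and 263 FPKM in R213A 1 and 3 and 307 FPKM in control 1. For CKS2 the 5-library table held 159 and 166 FPKM in wild type 2 and 3, 152 FPKM in R213A 2 and 370 and 159 FPKM in control 2 and 3. Control 2 was more than 2-fold above control 3 in this gene, and in the 4-library table R213A 1 was highest. CCNB1, cyclin B1, the partner of CDK1 (ENSG00000134057, hg38 chromosome 5, 69167010 to 69178245, plus strand), had 49.8 FPKM in wild type 1, 162 and 143 FPKM in R213A 1 and 3 and 184 FPKM in control 1. For CCNB1 the 5-library table held 77.3 and 77.5 FPKM in wild type 2 and 3, 75.1 FPKM in R213A 2 and 67.7 and 78.2 FPKM in control 2 and 3. Wild type 1 stood below the other 3 libraries of its table, and the wild type and control libraries of the 5-library table overlapped. Differences are on the log2(FPKM + 1) scale here and below, on which those of low genes are understated. The 8 genes had a median difference of -1.87 in wild type 1 against control 1, between -2.85 (CCNA2, cyclin A2) and -1.12 (CKS2), and of -0.053 in wild type 2 and 3 against control 2 and 3, between -0.58 (CKS2) and 0.26 (AURKA, a spindle pole kinase).

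CDK1, the kinase that drives entry, had 11.4 FPKM in wild type 1, 36.1 and 40.7 FPKM in R213A 1 and 3 and 55.6 FPKM in control 1. For CDK1 the 5-library table held 28.4 and 30.5 FPKM in wild type 2 and 3, 31.4 FPKM in R213A 2 and 37.0 and 29.9 FPKM in control 2 and 3. Its highest library was control 1 and its lowest wild type 1. PLK1, a kinase of entry and of spindle assembly, had 12.5 FPKM in wild type 1, 53.3 and 44.2 FPKM in R213A 1 and 3 and 48.8 FPKM in control 1. For PLK1 the 5-library table held 11.5 and 10.9 FPKM in wild type 2 and 3, 11.1 FPKM in R213A 2 and 12.1 and 10.9 FPKM in control 2 and 3. In PLK1 the tables differ: wild type 1 lay just above the whole 5-library table, and R213A 1 and 3 and control 1 lay well above it. The other 4 genes were CCNB2, CCNA2, AURKA and the phosphatase gene CDC25C, which activates CDK1, and wild type 1 was lowest of the 9 libraries in each of them.

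The chromosomal passenger complex corrects the attachment of chromosomes to the spindle. AURKB, its kinase (ENSG00000178999, hg38 chromosome 17, 8204733 to 8210600, minus strand), had 18.8 FPKM in wild type 1, 144 and 72.2 FPKM in R213A 1 and 3 and 65.2 FPKM in control 1. For AURKB the 5-library table held 20.7 and 20.1 FPKM in wild type 2 and 3, 19.1 FPKM in R213A 2 and 25.8 and 18.2 FPKM in control 2 and 3. R213A 1 and 3 were both above control 1, and wild type 1 was the lowest library of its table but lay between values of the 5-library table. BIRC5, survivin, the subunit that places the complex, had 12.5 FPKM in wild type 1, 100 and 45.6 FPKM in R213A 1 and 3 and 54.3 FPKM in control 1. For BIRC5 the 5-library table held 12.3 and 13.2 FPKM in wild type 2 and 3, 11.9 FPKM in R213A 2 and 9.45 and 12.2 FPKM in control 2 and 3. The groups of the 5-library table lay close together here, with both wild type libraries above both control libraries by a narrow margin. CDCA8, borealin, was at 8.17 FPKM in wild type 1, 33.3 and 27.9 FPKM in R213A 1 and 3 and 36.0 FPKM in control 1. The median difference of the 3 genes was -2.01 in wild type 1 against control 1 and 0.021 in wild type 2 and 3 against control 2 and 3.

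The spindle checkpoint genes BUB1, BUB1B, BUB3, MAD2L1 and TTK were all lower in wild type 1, and to unequal degrees. BUB3, a checkpoint scaffold (ENSG00000154473, hg38 chromosome 10, 123154277 to 123170467, plus strand), had 11.6 FPKM in wild type 1, 18.1 and 18.9 FPKM in R213A 1 and 3 and 21.8 FPKM in control 1. For BUB3 the 5-library table held 18.4 and 19.0 FPKM in wild type 2 and 3, 18.5 FPKM in R213A 2 and 19.5 and 17.6 FPKM in control 2 and 3. It varied least of the 39 genes, and wild type 1 still lay below every other library. TTK, the kinase that starts checkpoint signalling, had 3.11 FPKM in wild type 1, 6.62 and 10.4 FPKM in R213A 1 and 3 and 16.7 FPKM in control 1. For TTK the 5-library table held 17.7 and 16.0 FPKM in wild type 2 and 3, 17.7 FPKM in R213A 2 and 22.6 and 18.4 FPKM in control 2 and 3. R213A 1 and 3 stood below control 1 in TTK, and both wild type libraries of the 5-library table below both controls. The 5 genes had a median difference of -2.11 in wild type 1 against control 1, between -2.44 (BUB1B) and -0.86 (BUB3), and of -0.0068 in wild type 2 and 3 against control 2 and 3.

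Genes of anaphase ubiquitination and securin had the smallest median difference of any role in wild type 1. CDC20, the activator of the anaphase-promoting complex (ENSG00000117399, hg38 chromosome 1, 43358955 to 43363203, plus strand), had 97.2 FPKM in wild type 1, 356 and 269 FPKM in R213A 1 and 3 and 202 FPKM in control 1. For CDC20 the 5-library table held 50.5 and 47.5 FPKM in wild type 2 and 3, 46.0 FPKM in R213A 2 and 101 and 47.1 FPKM in control 2 and 3. Wild type 1 was above wild type 2 and 3 in CDC20 and below the rest of its own table. UBE2C, the ubiquitin-conjugating enzyme of that complex, had 74.7 FPKM in wild type 1, 307 and 225 FPKM in R213A 1 and 3 and 174 FPKM in control 1. For UBE2C the 5-library table held 67.9 and 67.2 FPKM in wild type 2 and 3, 66.4 FPKM in R213A 2 and 78.0 and 62.7 FPKM in control 2 and 3. It showed the same order in the 4-library table, with both R213A libraries above control 1, and overlapping groups in the other. PTTG1, securin, had 24.2 FPKM in wild type 1, 122 and 74.8 FPKM in R213A 1 and 3 and 65.8 FPKM in control 1. The 3 genes had a median difference of -1.21 in wild type 1 against control 1, and of 0.60 in R213A 1 and 3 against control 1, where the 8 entry genes had -0.14.

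Of the 6 centromere and kinetochore genes, CENPW, a component of the inner kinetochore (ENSG00000203760, hg38 chromosome 6, 126340174 to 126348875, plus strand), had 16.0 FPKM in wild type 1, 84.7 and 48.4 FPKM in R213A 1 and 3 and 47.5 FPKM in control 1. For CENPW the 5-library table held 27.0 and 29.4 FPKM in wild type 2 and 3, 31.8 FPKM in R213A 2 and 30.4 and 25.1 FPKM in control 2 and 3. R213A 1 stood far above the rest, and in the 5-library table R213A 2 was highest while the wild type and control libraries overlapped. NDC80, part of the complex that holds microtubules, had 7.14 FPKM in wild type 1, 21.0 and 21.3 FPKM in R213A 1 and 3 and 34.5 FPKM in control 1. For NDC80 the 5-library table held 15.7 and 15.2 FPKM in wild type 2 and 3, 14.4 FPKM in R213A 2 and 10.8 and 15.4 FPKM in control 2 and 3. In NDC80 wild type 1 was lowest of the 9 libraries and control 1 highest. CENPE, a motor of the kinetochore and the tested gene of lowest mean at 3.45 FPKM, had 0.613 FPKM in wild type 1, 1.89 and 1.98 FPKM in R213A 1 and 3 and 5.09 FPKM in control 1. The 6 genes, with CENPA (the centromeric histone H3), CENPF and NUF2, had a median difference of -2.02 in wild type 1 against control 1 and of 0.031 in wild type 2 and 3 against control 2 and 3.

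Spindle motors and assembly factors followed. TPX2, which activates AURKA at the spindle (ENSG00000088325, hg38 chromosome 20, 31739271 to 31801805, plus strand), had 30.3 FPKM in wild type 1, 90.9 and 89.1 FPKM in R213A 1 and 3 and 115 FPKM in control 1. For TPX2 the 5-library table held 59.5 and 59.5 FPKM in wild type 2 and 3, 60.8 FPKM in R213A 2 and 58.5 and 59.2 FPKM in control 2 and 3. Its 5 values in the second table were nearly equal, and the 4 of the first table were ordered with wild type 1 lowest and control 1 highest. KIF2C, a kinesin that shortens microtubules, had 12.3 FPKM in wild type 1, 55.2 and 38.0 FPKM in R213A 1 and 3 and 44.3 FPKM in control 1. For KIF2C the 5-library table held 24.1 and 27.1 FPKM in wild type 2 and 3, 24.2 FPKM in R213A 2 and 34.1 and 24.0 FPKM in control 2 and 3. R213A 1 was above control 1 in KIF2C and R213A 3 below it. KIF11 (the motor that separates spindle poles), KIF4A, NUSAP1, DLGAP5 and HMMR completed the group, and its median difference was -1.90 in wild type 1 against control 1, between -2.55 (DLGAP5) and -1.50 (NUSAP1). In wild type 2 and 3 against control 2 and 3 the median was 0.016, between -0.27 (NUSAP1) and 0.28 (HMMR).

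Central spindle and cytokinesis genes stood farther below control 1 in wild type 1, by their median, than the roles above. ECT2, the exchange factor that switches on RhoA at the cleavage furrow (ENSG00000114346, hg38 chromosome 3, 172750682 to 172821474, plus strand), had 10.9 FPKM in wild type 1, 18.8 and 25.9 FPKM in R213A 1 and 3 and 50.3 FPKM in control 1. For ECT2 the 5-library table held 65.9 and 61.3 FPKM in wild type 2 and 3, 62.6 FPKM in R213A 2 and 62.9 and 63.9 FPKM in control 2 and 3. ECT2 was low in R213A 1 and 3 as well, and nearly even over the 5-library table. ANLN, anillin, a scaffold of the contractile ring (ENSG00000011426, hg38 chromosome 7, 36389806 to 36453791, plus strand), had 2.56 FPKM in wild type 1, 7.59 and 10.4 FPKM in R213A 1 and 3 and 28.8 FPKM in control 1. For ANLN the 5-library table held 31.6 and 28.3 FPKM in wild type 2 and 3, 31.8 FPKM in R213A 2 and 24.5 and 31.7 FPKM in control 2 and 3. Control 1 lay at the level of the 5-library table in ANLN, and the other 3 libraries of its table lay below all of that table. KIF20A, a kinesin of the central spindle (ENSG00000112984, hg38 chromosome 5, 138178719 to 138187715, plus strand), had 2.40 FPKM in wild type 1, 15.3 and 16.5 FPKM in R213A 1 and 3 and 34.2 FPKM in control 1. For KIF20A the 5-library table held 15.4 and 13.2 FPKM in wild type 2 and 3, 13.9 FPKM in R213A 2 and 10.3 and 16.1 FPKM in control 2 and 3. Its wild type and control libraries overlapped in that table. The 4-library values put wild type 1 at 7.02% of control 1 in KIF20A, 8.86% in ANLN and 21.7% in ECT2. The 4 tested genes, with KIF23, had a median difference of -2.63 in wild type 1 against control 1, of -1.13 in R213A 1 and 3 against control 1 and of 0.053 in wild type 2 and 3 against control 2 and 3.

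PRC1, the microtubule bundler of the central spindle, was the 1 gene that failed the filter, with a mean of 0.230 FPKM and 4 to 44 reads per library. It was highest in control 1 at 0.425 FPKM and at 0.0374 FPKM in wild type 1. Its span overlaps 3 other genes, 1 of them antisense. In all, 18 of the 40 genes overlap a gene on the opposite strand, among them KIF4A with PDZD11 (mean 20.2 FPKM) and CDC25C with FAM53C (mean 9.54 FPKM). The kit marks strand, but the strand setting of the counting is not given, so reads of such pairs may be mixed. CENPA overlaps SLC35F6 (mean 19.0 FPKM) on the same strand. KIF4B, a near-identical copy of KIF4A, had a mean of 0.0286 FPKM.

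TOP2A, the topoisomerase that untangles chromosomes (ENSG00000131747, hg38 chromosome 17, 40388516 to 40417950, minus strand), had 6.52 FPKM in wild type 1, 17.5 and 28.7 FPKM in R213A 1 and 3 and 60.9 FPKM in control 1. For TOP2A the 5-library table held 44.6 and 39.5 FPKM in wild type 2 and 3, 42.7 FPKM in R213A 2 and 56.6 and 44.3 FPKM in control 2 and 3. Wild type 1 was lowest, and wild type 2 and control 3 differed by a small margin that made the groups overlap. MKI67, which codes for the proliferation marker Ki-67 (ENSG00000148773, hg38 chromosome 10, 128096659 to 128126385, minus strand), had 4.06 FPKM in wild type 1, 21.4 and 16.6 FPKM in R213A 1 and 3 and 31.6 FPKM in control 1. For MKI67 the 5-library table held 12.4 and 9.11 FPKM in wild type 2 and 3, 12.2 FPKM in R213A 2 and 10.2 and 11.6 FPKM in control 2 and 3. The level in wild type 1 was again below all others, and control 1 was highest. CDCA3, a trigger of entry into mitosis, had 3.10 FPKM in wild type 1, 21.3 and 13.7 FPKM in R213A 1 and 3 and 12.1 FPKM in control 1. The 3 genes had a median difference of -2.69 in wild type 1 against control 1, the lowest of the 8 roles, and of -0.030 in wild type 2 and 3 against control 2 and 3.

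Set beside control 1 alone, wild type 1 was lower in 39 of the 39 genes, where 54% of all 11193 genes were lower. It was at least 2-fold lower in 38 of them, where 8.84% of all genes were, and the exception was BUB3. At least 2-fold higher stood 0 of them and 7.79% of all genes. The median difference was -2.01, against -0.07 over all genes, and the ratio of FPKM ranged between 7.02% of control 1 (KIF20A) and 53% (BUB3), with 24 genes under 25%. Against R213A 1 and 3, wild type 1 was below both libraries in 39 of 39 genes (37.7% of all genes) and above both in 0 (33%). It was at least 2-fold lower in 36 (4.07% of all genes) and higher in 0 (2.44%), with a median of -1.64 between -2.38 (AURKB) and -0.63 (BUB3). Wild type 1 was the lowest library of its table in 39 of 39 genes (28.8% of all genes). Across both tables, which may be scaled differently, it was the lowest of all 9 libraries in 34 of 39 genes, where that held for 17.2% of all genes. The 5 others were PLK1, AURKB, CDC20, UBE2C and BIRC5. Control 1 was the highest library of its table in 26 of 39 genes (39% of all genes) and the highest of all 9 in 23 (8.94%). These counts rest on 1 wild type library and have no replicate check, and those against control 1 rest on 1 control library as well.

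**Figure D2:**
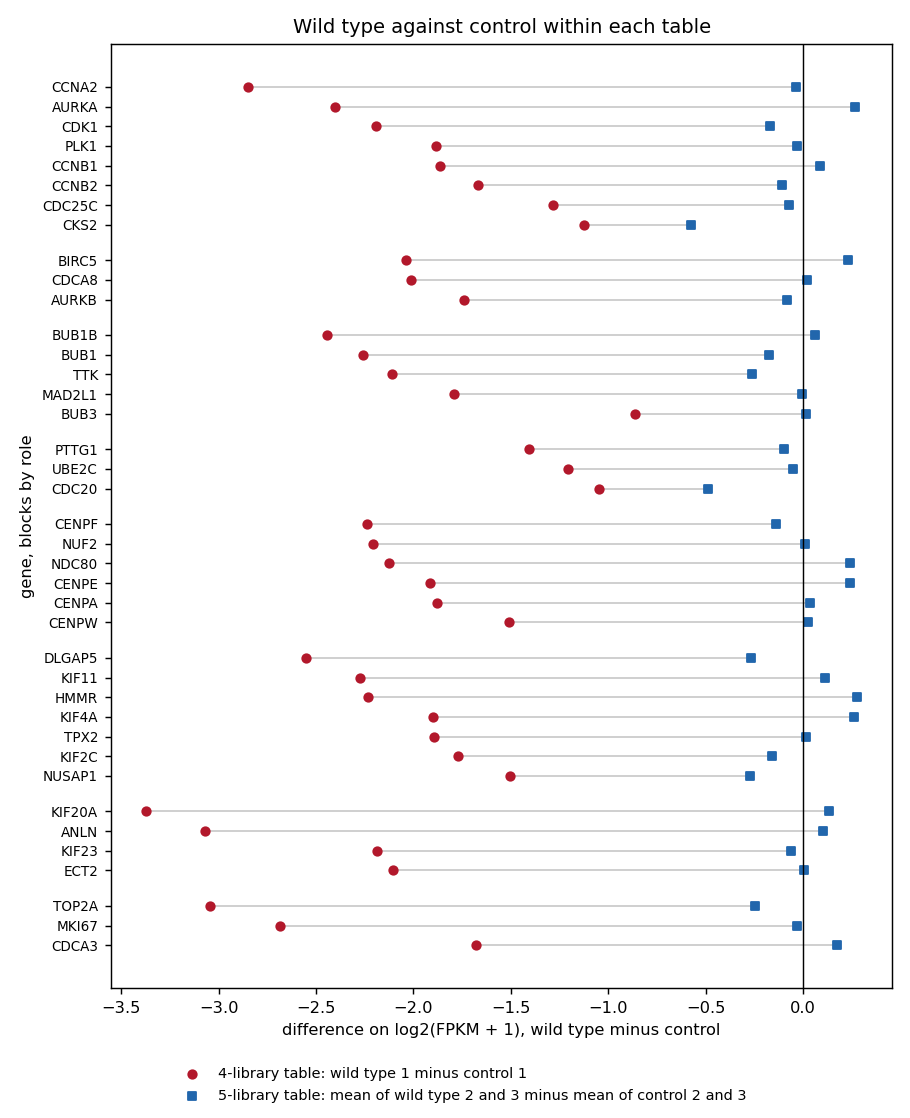
Difference of wild type minus control on the log2(FPKM + 1) scale for each of the 39 genes, in blocks by role, within the 4-library table (wild type 1 against control 1) and within the 5-library table (wild type 2 and 3 against control 2 and 3). The first lies between -3.37 and -0.86, the second between -0.58 and 0.28 around 0.

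In the 5-library table the mitotic genes showed no common difference between wild type 2 and 3 and control 2 and 3. The median was -0.0068 over the 39 genes and -0.012 over all genes, with 20 genes lower and 19 higher, and 37 of 39 lay within 0.3 of 0. Both wild type libraries were below both controls in 6 genes (CCNB2, BUB1, TTK, NUSAP1, DLGAP5 and CDC25C), where 15.4% of all genes were, and above both in 3 (TPX2, BIRC5 and CDCA3), where 15% were. At least 2-fold lower or higher stood 0 of the 39, against 0.152% and 0.205% of all genes. With 2 libraries against 2, the smallest p that an exact two-sided permutation test allows is 0.333.

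The difference between the tables was tested with an interaction of group and table over all genes in limma, which leaves 3 residual degrees of freedom and assumes that wild type 1 and control 1 vary like the other libraries. It called 125 of 11193 genes (1.12%) after Benjamini-Hochberg adjustment, and 18 of the 39 mitotic genes, all with a lower wild type difference in the 4-library table, where 0.679% of all genes were called in that direction. The median of the 39 genes was -2.03, against -0.07 over all genes. KIF20A stood farthest out at -3.51 ± 0.41 (SE, limma adjusted p = 0.0393), then ANLN at -3.17 ± 0.39 (limma adjusted p = 0.0393) and CCNA2 at -2.82 ± 0.34 (limma adjusted p = 0.0393). The entry genes called were CDK1, CCNA2 and AURKA, the checkpoint genes BUB1 and BUB1B, and the passenger gene CDCA8. The kinetochore genes were CENPE, CENPF, NDC80 and NUF2, the spindle genes KIF11, TPX2 and DLGAP5, and the cytokinesis genes KIF20A, KIF23 and ANLN, besides TOP2A and MKI67. Not called were CKS2 at -0.55 ± 0.76 and CDC20 at -0.56 ± 0.62, the 2 genes nearest to 0 (SE, limma adjusted p = 0.710 and 0.639). The calls depended on single libraries. Without wild type 2 there were 2 calls among the mitotic genes and 23 among all genes, and without wild type 3 there were 3 and 35. Leaving out R213A 1 gave 24 calls among the mitotic genes and 365 among all genes, and leaving out R213A 3 gave 24 and 355. Leaving out control 2 gave 0 and 0, and leaving out control 3 gave 11 and 196.

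Other measures differed between wild type 1 and control 1 as well. The 8 stress genes tested, among them HSPA5, the chaperone BiP, had a median difference of 4.10 in wild type 1 against control 1 and of 0.017 in wild type 2 and 3 against control 2 and 3. HSPA5 was at 894 FPKM in wild type 1, 194 and 233 FPKM in R213A 1 and 3 and 173 FPKM in control 1. The 13 transcripts of the mitochondrial genome, which can follow RNA quality, were lower in wild type 1 than in control 1 in 13 of 13, with a median of -0.80, and at 0.22 in the 5-library table. Neither was confined to wild type 1. R213A 1 and 3 against control 1 had medians of 1.29 for the stress genes and -0.38 for the mitochondrial transcripts. Summed stress genes were highest in wild type 1 (1806 FPKM) and lowest in control 1 (295 FPKM). In the 5-library table these sums ran between 784.5 FPKM (control 2) and 1050.7 FPKM (wild type 3), above control 1 and below wild type 1. Summed mitochondrial transcripts were lower in control 2 (12563 FPKM) than in wild type 1 (13900 FPKM). The part of stress genes or mitochondrial transcripts in the mitotic genes' difference was not tested.

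Over all 9 libraries, with group and table as terms, limma called 0 of 11193 genes (0%) between wild type and control, and 0 of the 39 mitotic genes. At an unadjusted p under 0.05 stood 503 genes (4.49%) and 6 of the 39: TOP2A, CDK1, BUB1, TTK, CENPF and DLGAP5. With limma-voom on recovered reads 0 genes were called and the unadjusted count was 386 genes and 2 of the 39. All 39 lay lower, where 53.7% of all genes did, with a median of -0.66 against -0.03 over all genes. TOP2A differed by -1.18 ± 0.48 (SE, limma adjusted p = 0.757, 95% interval between -2.25 and -0.11), KIF20A by -1.03 ± 0.57 and DLGAP5 by -1.03 ± 0.40. BUB3 at -0.28 ± 0.21, UBE2C at -0.43 ± 0.35 and CDCA3 at -0.44 ± 0.42 were nearest to 0. Without wild type 1 the median was -0.06, with 26 genes lower and 13 higher, and without control 1 it was -0.27. With library weights it was -0.13, with 33 lower and 6 higher. A p-value here reflects how far the libraries scatter, and that scatter may be technical.

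On R213A matrix the mitotic genes split by gene in the 4-library table and did not differ in common in the 5-library table. Against control 1, R213A 1 and 3 had a median of -0.52, with 28 of 39 genes lower and 11 higher, between -1.59 (ANLN) and 0.64 (AURKB). Both R213A libraries were below control 1 in 26 genes (44.9% of all genes) and above it in 7 (39.7% of all genes), namely AURKB, CDC20, UBE2C, CENPW, CDC25C, PTTG1 and CDCA3. At least 2-fold lower were 7 of the 39 (3.18% of all genes), and 0 were at least 2-fold higher (5.22%). By role, the medians were 0.60 for anaphase ubiquitination and securin, 0.31 for the passenger complex, -0.14 for the entry genes, -0.49 for the spindle genes, -0.71 for TOP2A, MKI67 and CDCA3, -0.79 for the kinetochore genes, -0.89 for the checkpoint genes and -1.13 for the cytokinesis genes. In the 5-library table R213A 2 had a median of -0.018 against control 2 and 3, with 21 genes lower and 18 higher, between -0.67 (CKS2) and 0.29 (CENPE). It was below both controls in 12 genes (27.4% of all genes) and above both in 6 (23.6%). At least 2-fold lower or higher stood 0 of the 39, against 0.223% and 0.304% of all genes.

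The split among the R213A differences ran with gene length, which differs widely among these genes, with 613 bases listed for CKS2 and 12807 for MKI67. Cut at the median length of 3815 bases, the 20 shorter genes had a median of 0.017 in R213A 1 and 3 against control 1 and the 19 longer ones -0.89. Over all genes tested, the medians were 0.32 for shorter and -0.21 for longer ones. Spearman's rho of length and difference was -0.618 over the 39 genes and -0.408 over all 11193 genes, both as descriptions across genes that share the same libraries. After each library was corrected for gene length by a spline, the shorter genes were at -0.19 and the longer at -0.75, with a median of -0.50 over the 39 and 30 lower. Spearman's rho over the 39 was then -0.374. In wild type 1 against control 1 both classes were lower, at -1.82 for the shorter and -2.19 for the longer genes, and 39 of 39 stayed lower after the correction with a median of -2.05. Differences ran with length there too, with a Spearman's rho of -0.48 over the 39 genes and -0.272 over all genes. After the correction rho was -0.231 over the 39. The part of RNA length or fragmentation in these differences was not tested.

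**Figure D3:**
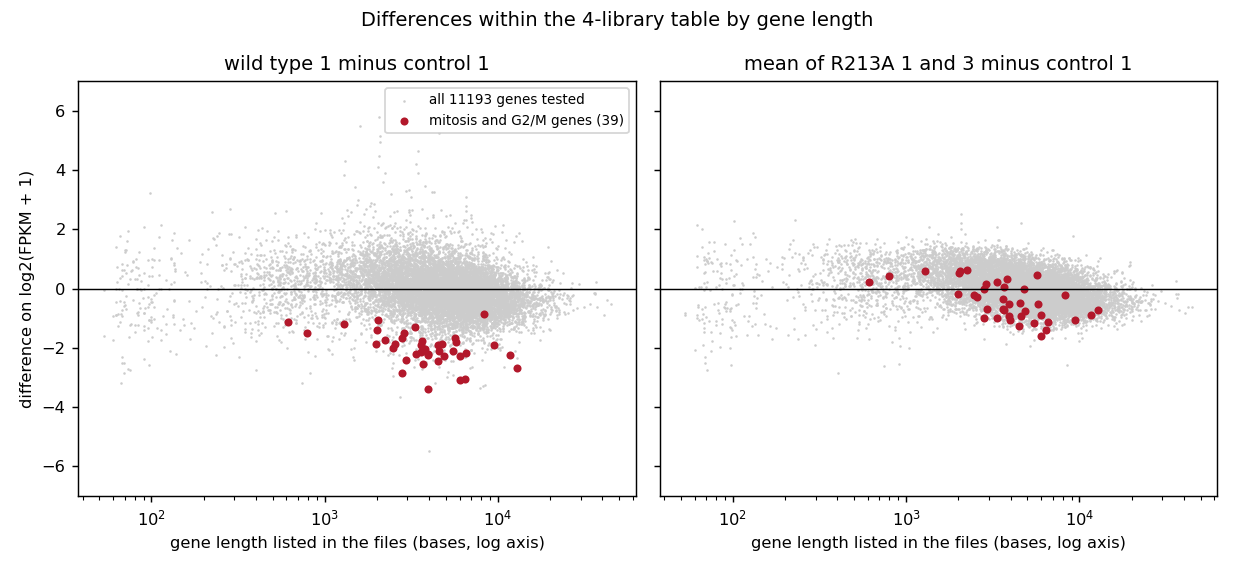
Difference on the log2(FPKM + 1) scale against the gene length listed in the files (bases, log axis) within the 4-library table, for all 11193 genes tested in grey and the 39 mitosis and G2/M genes in red. In R213A 1 and 3 against control 1 the median is 0.017 for the 20 shorter red genes and -0.89 for the 19 longer. In wild type 1 against control 1 all 39 lie below 0.

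Between R213A and control the fit over all 9 libraries made 0 limma calls among 11193 genes (0%) and 0 among the 39, with 341 genes (3.05%) and 0 of the 39 at an unadjusted p under 0.05, and limma-voom also called 0, with 198 genes and 0 of the 39 unadjusted. The median was -0.035, with 21 of 39 lower and 18 higher (51.9% of all genes lower). With quantile scaling the split was 28 lower and 11 higher, and with the length correction 26 and 13. TOP2A at -0.57 ± 0.50, CENPW at 0.49 ± 0.38 and BIRC5 at 0.49 ± 0.51 lay farthest out (SE, limma adjusted p of 0.690 or more), and AURKA at 0.011 ± 0.48, BUB3 at -0.031 ± 0.22 and MKI67 at -0.035 ± 0.47 nearest to 0. The median depended on single libraries. It was -0.23 with 31 genes lower without wild type 1, which enters through the table term, 0.17 with 27 higher without R213A 2 and 0.53 with 38 higher without control 1. Without any 1 of the other 6 libraries it lay between -0.21 (control 2) and -0.043 (R213A 3). Without the table term it was 0.040.

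Between wild type and R213A, limma called 0 of 11193 genes (0%) and 0 of the 39, with 117 genes (1.05%) and 4 of the 39 (AURKB, UBE2C, CENPW and PTTG1) unadjusted, and limma-voom called 0, with 84 genes and 4 of the 39. All 39 were lower on wild-type matrix (51.5% of all genes), with a median of -0.65. AURKB at -1.10 ± 0.48, BIRC5 at -1.01 ± 0.51 and CENPW at -0.98 ± 0.38 differed most (SE, limma adjusted p = 0.996 each). BUB3 at -0.25 ± 0.22, CENPE at -0.26 ± 0.39 and ECT2 at -0.28 ± 0.38 differed least. Wild type 1 carried the sign: without it the median was 0.12 with 31 genes higher. With library weights the median was -0.12, with 39 lower, and without the table term 36 of 39 were lower. In the 5-library table wild type 2 and 3 against R213A 2 had a median of 0.032, with all 39 within 0.3 of 0. There 9 genes were below R213A 2 in both wild type libraries (29.9% of all genes) and 16 above it (35.2%), and at least 2-fold lower or higher stood 0 of the 39, against 0.179% and 0.0983% of all genes.

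Control 2 lay outside the range of the other 4 libraries of its table in mitotic genes about as often as in all genes. Its differences there had no common direction, with a median of 0.0031. It was above all 4 in 16 genes (43.7% of all genes), below all 4 in 15 (37.1%) and within their range in 8. Its difference from their mean ran between -0.65 (KIF4A) and 1.22 (CKS2), with CDC20 at 1.07, AURKA at -0.62 and HMMR at -0.60. CKS2 and CDC20 were the 2 genes at least 2-fold apart. Among wild type 2, wild type 3, R213A 2 and control 3 the highest library exceeded the lowest by a median ratio of 1.11, under 1.25 in 34 of 39 genes and at most 1.42 (NUSAP1). Their median coefficient of variation was 4.52%, where counting error alone gives a median of 2.9% at mean depths between 249 and 6367 reads per gene.

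**Figure D4:**
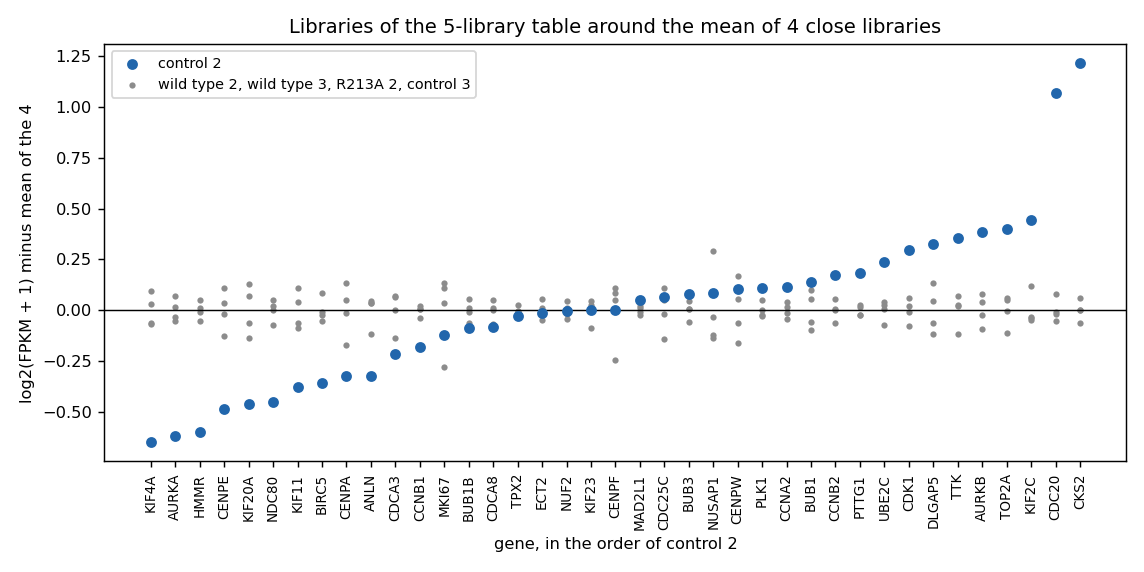
Each library of the 5-library table as log2(FPKM + 1) minus the mean of wild type 2, wild type 3, R213A 2 and control 3, for the 39 genes in the order of control 2. Control 2 runs between -0.65 and 1.22, while the other 4 stay near 0.

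Other cell cycle genes were read beside the 39. Of 62 further mitosis genes 58 lay lower in wild type than in control over all libraries (53.7% of all genes), with 0 called and a median of -0.53. The medians within the tables were -1.63 (4 libraries) and 0.033 (5 libraries). The 2 of highest level were CKS1B, another CDK subunit, with 52.2 FPKM in wild type 1, 122 and 85.8 FPKM in R213A 1 and 3 and 71.4 FPKM in control 1, and the phosphatase gene CDC25B, with 52.9 FPKM in wild type 1, 97.2 and 75.0 FPKM in R213A 1 and 3 and 70.8 FPKM in control 1. In both, wild type 1 stood closer to control 1 than in any of the 39 genes.

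Of the 42 S phase genes 40 lay lower (53.7% of all genes), with 0 called and a pooled median of -0.39. Their medians were -1.52 (4 libraries), with 42 of 42 lower (54% of all genes), and 0.17 (5 libraries), with 11 lower (52.3% of all genes). PCNA, the sliding clamp of replication, had 45.3 FPKM in wild type 1, 143 and 160 FPKM in R213A 1 and 3 and 186 FPKM in control 1. For PCNA the 5-library table held 98.8 and 101 FPKM in wild type 2 and 3, 93.4 FPKM in R213A 2 and 54.1 and 101 FPKM in control 2 and 3. TK1, thymidine kinase, had 40.5 FPKM in wild type 1, 281 and 134 FPKM in R213A 1 and 3 and 121 FPKM in control 1. Wild type 1 was lowest of its table in both, and control 2 stood below control 3 in PCNA. Of 19 tested G2/M transcription regulators 17 lay lower (53.7% of all genes), with 0 called, a pooled median of -0.37, and medians of -1.06 and 0.047 in the tables. MYBL2, which codes for B-MYB, had 35.6 FPKM in wild type 1, 228 and 137 FPKM in R213A 1 and 3 and 138 FPKM in control 1. For MYBL2 the 5-library table held 52.7 and 55.7 FPKM in wild type 2 and 3, 52.5 FPKM in R213A 2 and 39.6 and 47.8 FPKM in control 2 and 3. TFDP1, the E2F partner, had 16.0 FPKM in wild type 1, 33.9 and 43.5 FPKM in R213A 1 and 3 and 74.3 FPKM in control 1. Of the 18 G1 cyclins and CDK inhibitors 15 lay lower (53.7% of all genes), with 0 called and a pooled median of -0.20. Their medians were -0.54 and 0.0065 in the tables. In wild type 1 against control 1 their members went both ways, with 13 of 18 lower (54% of all genes). CDK4, the G1 kinase, had 63.2 FPKM in wild type 1, 116 and 85.1 FPKM in R213A 1 and 3 and 75.5 FPKM in control 1, and CCNG1, a p53 target, had 15.2 FPKM in wild type 1, 21.9 and 31.1 FPKM in R213A 1 and 3 and 49.8 FPKM in control 1. CDKN1A, the CDK inhibitor p21, chosen after its values were seen, had 75.7 FPKM in wild type 1, 11.0 and 19.1 FPKM in R213A 1 and 3 and 6.64 FPKM in control 1. For CDKN1A the 5-library table held 42.4 and 46.4 FPKM in wild type 2 and 3, 45.2 FPKM in R213A 2 and 48.4 and 38.3 FPKM in control 2 and 3. It was highest of the 9 libraries in wild type 1 and lowest in control 1, and the wild type and control libraries of the 5-library table overlapped. These lists were read in the same libraries as the mitotic genes and are not independent of them.

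Against control, R213A 1 and 3 in the 4-library table and R213A 2 in the other had medians of -0.60 and 0.033 for the further mitosis genes, -0.28 and 0.14 for the S phase genes, -0.57 and 0.09 for the transcription regulators and -0.33 and -0.011 for the G1 genes. In wild type against R213A the further mitosis genes had -1.12 and 0.0043, and the S phase genes -1.28 and 0.024. The transcription regulators had -0.40 and -0.017 there, and the G1 genes -0.035 and -0.022.

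**Figure D5:**
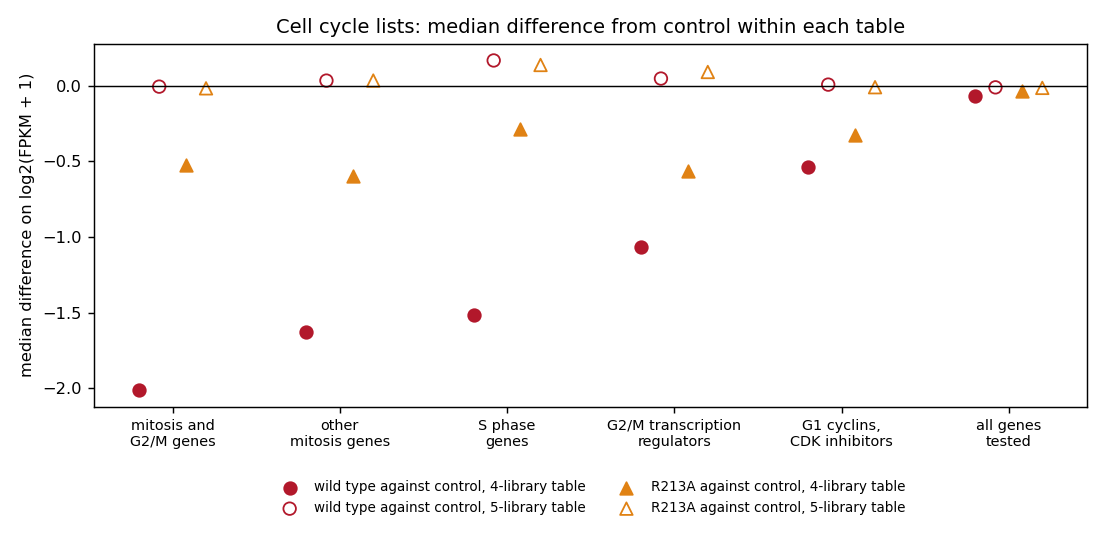
Median difference from control on the log2(FPKM + 1) scale within each table, for the mitosis and G2/M genes, 4 further cell cycle lists and all genes tested, with wild type and R213A as separate markers. In wild type 1 against control 1 the medians run from -2.01 for the mitosis and G2/M genes over -1.63 and -1.52 for further mitosis and S phase genes to -0.54 for G1 genes, and in the 5-library table they lie near 0.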

How the data were processed

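Each of the 9 libraries was an Illumina TruSeq stranded mRNA preparation of about 500 ng of TRIzol-extracted RNA, per the labels' protocols. The authors deposited FPKM per gene in 2 tables, with gene length and position columns beside them, and no reads were used. The submitters' processing notes name bcl2fastq and hg38, with aligner, counter, annotation release and strand setting not given in the sources used here. FPKM times gene length, in steps of the smallest value, came out as whole reads for 100% of the values within 0.01 reads, and these reads served for depth and as an alternative with limma-voom. The scaling in the deposited values differed from recovered totals by a factor between 0.8505 and 1.093.

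Levels were compared on log2(FPKM + 1) in R 4.3.3 with limma 3.58.1 and a mean-variance trend over the 11193 genes whose mean reached 1 FPKM, on all 9 libraries, with group and table as terms (5 residual degrees of freedom). P-values were adjusted over all genes by Benjamini and Hochberg at 0.05. Within-table differences are plain differences of means. All 40 genes are named. Values in every library are given for the 2 of highest mean in each role and for TOP2A and MKI67, and for CDK1, PLK1 and KIF20A, with 4-library values alone for a few others, all chosen after their values were seen. The genes, lists and motifs were chosen with earlier results of these data known. Promoter sequences are RefSeq's, from GRCh38.p14, and Python 3.11.15 with pandas 2.3.3 counted motifs. Alternatives changed the pseudocount, filter, scaling, gene length, table term, replicate block, spread model and libraries.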

Additional observations from a re-analysis of the deposited data

Results flagged for a closer look

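In 18 of the 39 genes the wild type difference from control itself differed between the tables (limma interaction of group and table, adjusted p between 0.0393 and 0.0464), so that the difference of wild type 1 from control 1 was lower than that of wild type 2 and 3 from control 2 and 3. The 4-library difference minus the 5-library difference, in log2(FPKM + 1), was -2.02 for CDK1, -2.82 for CCNA2 and -2.67 for AURKA among the entry genes, -2.08 for BUB1 and -2.51 for BUB1B in the checkpoint and -2.03 for CDCA8 in the passenger complex. It was -2.16 for CENPE, -2.10 for CENPF, -2.37 for NDC80 and -2.22 for NUF2 at the kinetochore, and -2.38 for KIF11, -1.91 for TPX2 and -2.29 for DLGAP5 at the spindle. The cytokinesis genes had -3.51 for KIF20A, -2.12 for KIF23 and -3.17 for ANLN, and the remaining values were -2.79 for TOP2A and -2.65 for MKI67. Each rests on wild type 1 and control 1 as lone libraries, and stress genes and mitochondrial transcripts differed in the same pair, whose part was not tested.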

How the results depend on the processing

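With 1 or 2 libraries per group and table, the median 95% interval of a gene in the pooled comparisons reached 0.84 to 0.87 to either side on the log2 scale. The wild type difference from control in the 4-library table had a median of -2.01, and -2.13 and -2.08 with pseudocounts of 0.1 and 0.5, -1.96 with no filter, -1.96 with quantile scaling, -1.94 with median-of-ratios scaling and -2.18 with limma-voom. For wild type against R213A there, -1.64 became -1.74 with a pseudocount of 0.1, -1.34 with quantile scaling, -1.59 with the length correction and -1.56 with limma-voom. For R213A against control there, -0.52 became -0.80 with quantile scaling, -0.46 with median of ratios and -0.77 with limma-voom. In the 5-library table, R213A against control had 0.027 with quantile scaling and 0.089 with limma-voom, and wild type against control 0.088 with limma-voom, signs opposite to the reported -0.018 and -0.0068.

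With no filter, 1 gene was called in wild type against control and 1 in R213A against control. A fit of the 4-library table alone, with single libraries taken to vary as R213A 1 and 3 do, called 775 genes and 29 of the 39 for wild type against control (median -2.01), 184 genes and 1 of the 39 for R213A against control and 327 genes and 21 of the 39 for wild type against R213A (median -1.64). The 5-library table alone had medians of -0.0068 for wild type against control and 0.032 for wild type against R213A. The difference between tables called 1655 genes with no filter, 297 with quantile scaling, 421 genes and 28 of the 39 with the 2 groups alone, and 0 and 0 with library weights, where 938 genes and 35 of the 39 stood at an unadjusted p under 0.05. With a replicate block beside the table term it called 1163 genes and 35 of the 39, but the labels tie nothing to the numbers. Of 9 same-number pairs 7 had a correlation of deviations from the group means over 0.1, and these 7 are the pairs that share a table. Around means of group and table all 9 were negative, between -0.755 and -0.0634. In the first measure 6 of 9 libraries were closest to a library of their own number.

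Leaving out 1 library at a time, the median of the 39 genes ran between -0.88 and -0.0595 for wild type against control, between -0.94 and 0.12 for wild type against R213A, between -0.55 and -0.43 for R213A against control in the 4-library table and between -1.70 and -1.54 for wild type against R213A there, and the difference between tables called 0 to 365 genes and 0 to 24 of the 39. The interaction cannot be estimated without wild type 1 or without control 1. No gene among the 39 changed direction in a called result under these settings. With limma-voom the median of all genes for wild type against R213A was 0.11, beside -0.60 for the 39. The cause of these shifts was not tested.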
